A study of Mus musculus with 4 samples.

Results

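The 39 HOX cluster genes of the mouse were followed across the prostate, taken as every row of the UMI count matrices whose symbol is Hox with a cluster letter and a paralogue number. They are 39 of 31053 rows. Single-cell libraries were made from 2 tissues. In 3 adult runs, cells came from pools of P2-Runx1:RFP reporter mice on an ICR (CD-1) background, older than 8 weeks, in which the P2 promoter of Runx1 drives RFP. The pools held 4 intact mice with 4 castrated ones in run 1, 3 with 5 in run 2, and 4 without any castrated ones in run 3. Castration preceded collection by at least 4 weeks. The anterior lobe is written AP, the dorsolateral DLP and the ventral VP. From each, EPCAM+ RFP+ and EPCAM+ RFP- cells were sorted, and each lobe and gate was marked with a lipid-anchored MULTI-seq barcode, so the lobe and the gate of a cell do not depend on its RNA. The fourth library held EPCAM+ cells of urogenital sinus explants dissected at E15.5 and kept in culture with 10 µM dihydrotestosterone for 0, 1, 3 or 6 days, with 8, 10, 7 and 8 explants from 1, 2, 1 and 2 litters. Every animal of the adult runs carried the reporter, castrated and intact alike, so there is no control without it here. All explants of days 1, 3 and 6 were cultured with the hormone. Those of day 0 were E15.5 tissue before culture, so hormone, culture and time cannot be told apart.

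HOX genes encode homeodomain transcription factors that give cells their position along the head to tail axis. They stand in 4 clusters, A to D, numbered from the 3′ end to the 5′ end, and genes of low number are used towards the head and genes of high number towards the tail. The 5′ genes act in the hindgut and genitourinary tract: Hoxa13 and Hoxd13 pattern the urogenital sinus from which the prostate buds, Hoxb13 is active in prostate epithelium into adult life, and Hoxa9, Hoxa10 and Hoxa11 act along the reproductive ducts. The Wolffian (mesonephric) duct, which meets the urogenital sinus and forms the seminal vesicle and vas deferens, is marked by the paired-box factor Pax2. HOX proteins bind DNA together with PBX, MEIS and PKNOX homeodomain partners, and Polycomb and Trithorax proteins keep HOX genes off or on.

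In mm10 the A cluster lies on chromosome 6 (11 genes), the B cluster spans chromosome 11 from 96194316 to 96368256 (10 genes), the C cluster chromosome 15 from 102921103 to 103036852 (9 genes) and the D cluster chromosome 2 from 74668310 to 74765142 (9 genes). The A, B and D clusters carried nearly all of the signal: the 9 genes of the C cluster held 193 of the 125117 HOX UMIs in the files, and Hoxc12 had none. A level is given below in CPM, the counts-per-million scale, taken as the UMIs of a gene over all UMIs of the summed cells. It is not divided by gene length, and 3′ counting need not capture each gene equally, so levels are compared for 1 gene between cells and not between genes. Of the 39 genes, 15 reached 5 CPM in an intact adult population (Hoxa5, Hoxa7, Hoxa9, Hoxa10, Hoxa11, Hoxa13, Hoxb3, Hoxb7, Hoxb9, Hoxb13, Hoxd8, Hoxd9, Hoxd10, Hoxd11 and Hoxd13) and 25 did so in a day or Pax2 class of the explants. The explants alone carried 11 genes at that level (Hoxa3, Hoxb2, Hoxb4, Hoxb5, Hoxb6, Hoxb8, Hoxc4, Hoxc5, Hoxd1, Hoxd3 and Hoxd12), and the adult alone carried Hoxd10. Hoxa2, Hoxa4, Hoxa6, Hoxb1, Hoxc6, Hoxc8 to Hoxc13 and Hoxd4 stayed below it throughout. Their UMIs in all 4 files ranged from 0 for Hoxc12 to 249 for Hoxa6. A second row of the symbol Hoxd4, with a suffix that the rule leaves out, held 63 UMIs against 24 in the Hoxd4 row. For 6 of the 39 genes an exon overlaps another counted gene on the same strand (Hoxa2, Hoxa3, Hoxc5, Hoxc10, Hoxd3 and Hoxd4), so their counts are uncertain.

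**Figure D1:**
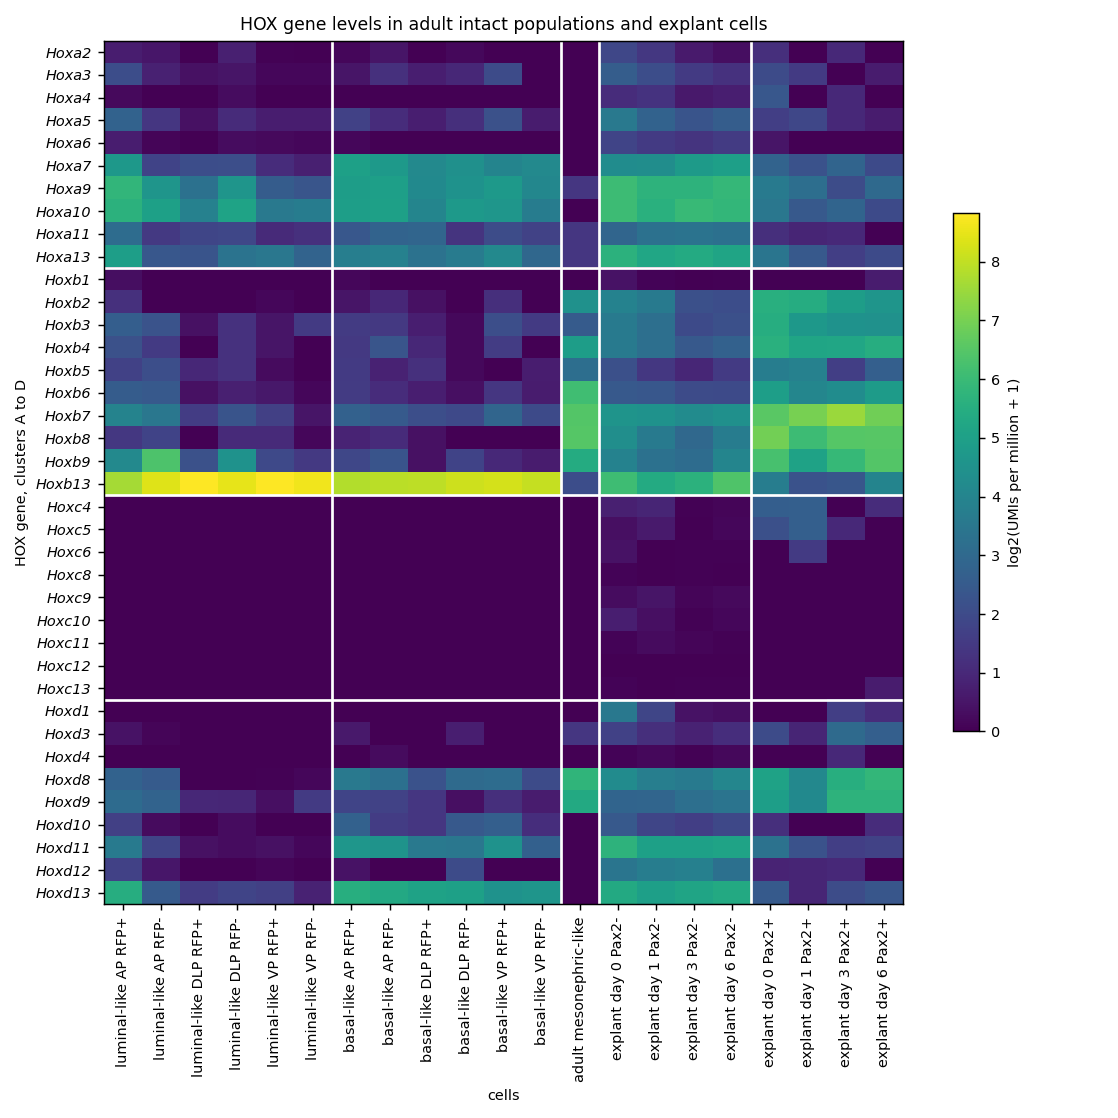
Heatmap of log2(CPM + 1) of 38 HOX genes (rows, grouped by cluster A to D) in intact adult luminal-like and basal-like cells by lobe and RFP gate (mean over the runs that have the population), in adult mesonephric-like cells and in explant cells by day and by Pax2 UMI. The C cluster rows are near 0 in every adult column, Hoxb13 is high in every adult epithelial column, and Hoxb7, Hoxb8 and Hoxd9 are higher in the Pax2+ columns than in the Pax2- columns of the same day.

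The files held 2612, 6034 and 3028 adult barcodes and 7474 explant barcodes, of which 824, 2194, 1673 and 5198 passed the cell filters and carried a single sample barcode, with medians of 9750 to 14784.5 UMIs per cell. Pairs of libraries shared 0 to 6 cell barcodes. Clusters were rebuilt without HOX genes and named from fixed markers, so shares may differ from those of the study. Basal-like cells of intact mice (1704) had the basal markers in a mean of 81.9% of cells per marker, and luminal-like cells (1481) had the luminal markers in 59.1%. A luminal-like cluster led by proximal luminal markers (Psca, Krt4), called proximal below, held 455 intact cells. Runx1 itself, which the gate reports, was at 99.6, 148 and 120 CPM in luminal-like AP RFP+ cells and at 19.9, 19.0 and 6.92 CPM in AP RFP- cells of runs 1, 2 and 3. In the luminal-like RFP+ gate of VP it was at 15.8 to 20.8 CPM, so that the RFP+ cells of VP had no higher Runx1 level in CPM than the RFP- cells of AP in runs 1 and 2. In those runs 50 genes held 66.9 and 67.8% of the UMIs of VP RFP+ cells, against 26.1 and 35.6% in AP RFP- cells. This lowers the CPM of other genes in VP, and Runx1 was not compared on a rescaled basis. Labelling of intact DLP RFP+ cells failed in both run 1 and run 2, and basal-like VP RFP- cells had a sum in runs 2 and 3 only. In the sample sheet of run 3 the short barcode sequences of both VP samples repeat those of the AP samples, although the full oligos differ. The deposited counts of the paired barcodes were equal in 18 (RFP+) and 0 (RFP-) of 3028 cells, and 138 of the 146 luminal-like cells called VP RFP+ in run 3 lay in the VP luminal cluster, beside 44 of 51 in run 1, 171 of 183 in run 2 and 0 of the 147 called AP RFP+ in run 3. In run 2 the VP luminal cluster also held 11 of 103 luminal-like AP RFP+ and 20 of 155 AP RFP- cells. Its cells had a median of 48150 UMIs, and their weight in the AP sums of run 2 was not tested. The calls were used as named. The runs are pools of mice, so the p-values below measure the spread between pools and libraries.

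Hoxb13 was present in every intact luminal-like population, lowest in AP RFP+ cells. There it was at 239, 240 and 111 CPM in runs 1, 2 and 3. In VP RFP+ cells it was at 468, 449 and 440 CPM. The RFP- cells of AP had 398, 355 and 245 CPM, those of DLP 426, 364 and 284 CPM, and those of VP 400, 456 and 342 CPM. The AP RFP+ values lie below those of VP RFP+ cells without overlap, whereas the 3 RFP- lobes overlap on this scale. In basal-like cells the means over runs lay between 221 ± 40.8 CPM (SD, n = 3, AP RFP+) and 304 ± 50.8 CPM (SD, n = 3, VP RFP+). As a check on free RNA, 8.26% of the 363 adult cells named hematopoietic had a Hoxb13 UMI, at 24.7 CPM.

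The remaining members were set against this pattern. In luminal-like RFP+ cells the AP carried many more HOX genes than the VP, and Hoxb13 ran the opposite way. The comparison asks whether the lobe of origin leaves a HOX difference between cells of 1 gate. Hoxd13, the most 5′ gene of the D cluster, was at 42.3, 37.3 and 52.4 CPM in AP RFP+ cells and at 5.68, 0.23 and 0.723 CPM in VP RFP+ cells. Hoxa7 was at 27.4, 16.9 and 30.2 CPM against 2.49, 0.344 and 0.723 CPM. Hoxa9 was at 71.3, 46.6 and 47.6 CPM against 7.82, 4.02 and 2.75 CPM. In all 3 genes every AP run stood above every VP run. Hoxa7 and Hoxa9 act in trunk patterning, and Hoxa9 also along the reproductive ducts. Hoxd11 was at 14.4, 5.24 and 13.8 CPM against 0.71, 0.23 and 0 CPM. Hoxa10 was at 64.4, 41.3 and 43.4 CPM against 18.5, 7.34 and 6.36 CPM. Hoxb9 was at 20.5, 12.8 and 17.5 CPM against 3.91, 1.84 and 2.89 CPM. These 3 also did not overlap between the lobes. With plain library sizes most tested genes passed as higher in AP, as given below. How many of all genes lack overlap between the lobes was not counted.

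In the edgeR fit, which rescales for a few dominant transcripts (TMM), 16 of 19 tested HOX genes passed an adjusted p of 0.05, against 25.7% of all tested genes. Of them 15 were higher in AP, against 14.6%, and 1 was lower, against 11.2%. The HOX median log2 fold change was 2.63, beside 0.06 over all tested genes. Hoxb13 fell by 2.35 ± 0.25 (log2, SE) in AP relative to VP (adjusted p = 1.97e-07). Among the A cluster genes Hoxa9 rose by 2.47 ± 0.28 (adjusted p = 4.16e-07) and Hoxa7 by 3.61 ± 0.45 (adjusted p = 1.73e-06), followed by Hoxa10, Hoxa11, Hoxa5 and Hoxa3. In the D cluster Hoxd13 rose by 3.75 ± 0.52 (adjusted p = 7.06e-06) and Hoxd11 by 4.27 ± 0.69 (adjusted p = 4.19e-05), together with Hoxd8, Hoxd9 and Hoxd10. In the B cluster Hoxb9 rose by 1.48 ± 0.36 (adjusted p = 0.003), with Hoxb7, Hoxb6 and Hoxb3 at adjusted p between 0.0249 and 0.0429. Several of these genes had next to no UMIs in VP: Hoxd10 had 15 UMIs in AP and 0 in VP, at least 12.5-fold higher, and Hoxd8 had 51 against 1, a ratio of 128 with a counting interval of 21.9 to 5143. Hoxa13 was at 46.1, 23.9 and 20.6 CPM in AP and 14.2, 9.41 and 7.52 CPM in VP, yet its fitted log2 fold change was 0.43 ± 0.43 (adjusted p = 0.511). Hoxb4 and Hoxd12 did not pass either (adjusted p = 0.182 and 0.132).

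**Figure D2:**
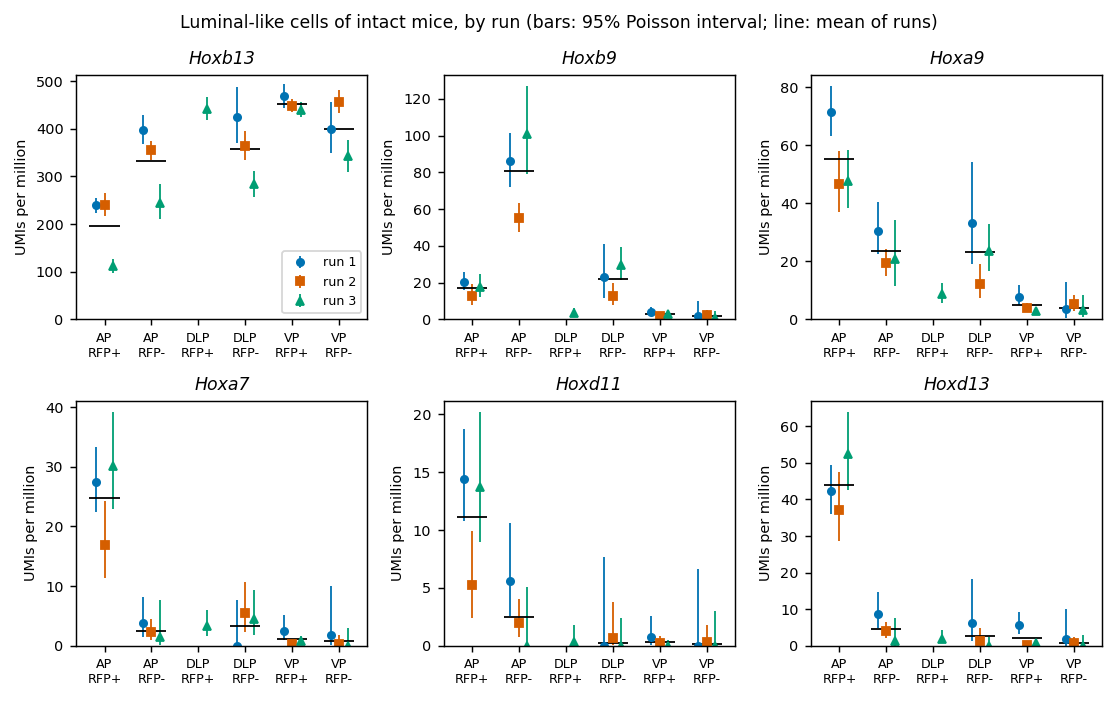
CPM of HOX genes in intact luminal-like cells, 1 point per run, by lobe and RFP gate. Hoxd13 and Hoxa7 are high in AP RFP+ cells alone among the luminal-like populations, Hoxb9 is highest in AP RFP- cells (55.03 to 101 CPM), and Hoxb13 is lowest in AP RFP+ cells.

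The scale and the cell mix both bear on this contrast. In VP luminal-like sums 63.2 to 67.8% of UMIs came from 50 genes, against 23.3 to 39.2% in AP. With plain library sizes the median over all genes moved to 1.23, all 19 HOX genes passed with 18 higher in AP and Hoxb13 lower, and 8108 genes were higher and 209 lower in all, where the TMM fit had 1686 and 1290. The lobes also differed in cell mix: 83.7% of the 466 AP RFP+ cells lay in the proximal cluster, whereas 92.9% of the 380 VP RFP+ cells lay in a VP luminal cluster and 5.0% in the proximal one. Without the proximal cluster 7 HOX genes passed (Hoxa7, Hoxa9, Hoxb9, Hoxd8, Hoxd11 and Hoxd13 higher in AP, Hoxb13 lower). The same 7 passed in each fit that left out 1 run. In total 12 passed without run 1, 7 without run 2 and 9 without run 3. The 6 hematopoietic markers summed to 102, 234 and 0.529 CPM in AP RFP+ and to 49.02, 8.84 and 0.145 CPM in VP RFP+ luminal-like cells of runs 1, 2 and 3. In run 3, where these sums were lowest, Hoxd13 and Hoxa7 of AP RFP+ cells were at their highest of the 3 runs. Hoxa9, Hoxa10, Hoxa13, Hoxb9 and Hoxd11 were at their highest in run 1, and Hoxa13 was at its lowest in run 3. The part of hematopoietic cells in this contrast was not tested.

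**Figure D3:**
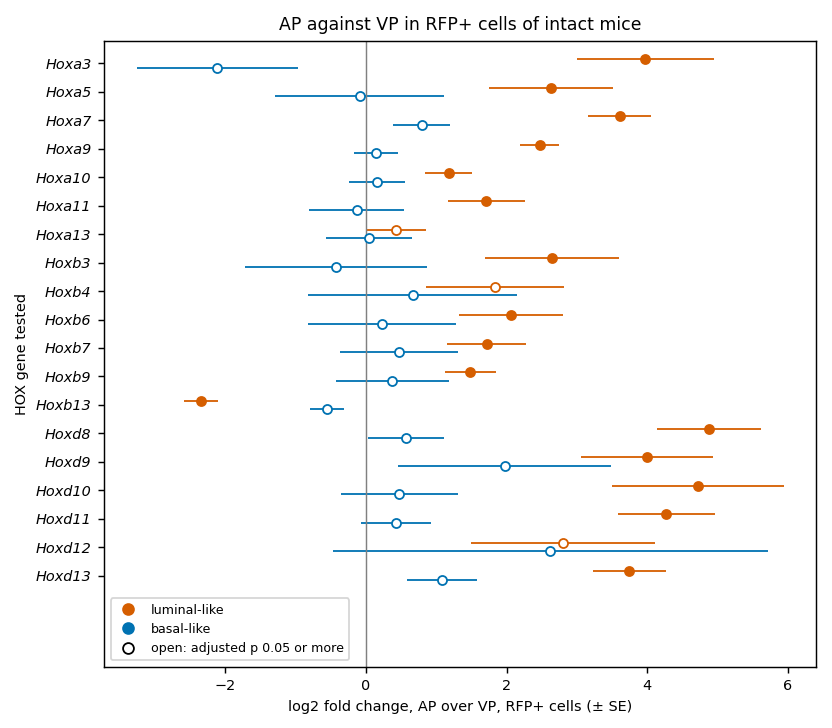
Fitted log2 fold change of AP over VP (± SE) of the 19 tested HOX genes in RFP+ cells of intact mice, luminal-like in orange and basal-like in blue, with open points where the adjusted p is 0.05 or more. In luminal-like cells 16 points are filled and all but Hoxb13 of these lie to the right of 0, and in basal-like cells no point is filled.

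Among luminal-like RFP- cells the lobe difference was narrower and was led by Hoxb9. Hoxb9 was at 86.0, 55.03 and 101 CPM in AP, at 22.9, 12.8 and 29.5 CPM in DLP, and at 1.8, 2.58 and 0.816 CPM in VP. The 3 lobes did not overlap in any pair for this gene. AP against VP gave a log2 fold change of 4.32 ± 0.45 (adjusted p = 4.27e-07), AP against DLP 1.77 ± 0.32 (adjusted p = 0.00458) and DLP against VP 2.55 ± 0.51 (adjusted p = 0.00274). For AP against VP 4 of 19 HOX genes passed, beside 13.2% of all genes, 3 higher beside 6.8% and 1 lower beside 6.38%. The others were Hoxa9 (1.45 ± 0.37, adjusted p = 0.00879) and Hoxd8 (27 UMIs against 1, a ratio of 22.3 with a counting interval of 3.67 to 912) on the higher side, and Hoxb13 (-1.19 ± 0.24, adjusted p = 0.00102) on the lower. With the run as a block 7 passed, adding Hoxb6 and Hoxb7 as higher and Hoxa13 as lower. For DLP against VP 3 passed, beside 6.33% of all genes (3.74% higher and 2.6% lower): Hoxb9, Hoxa9 (1.39 ± 0.38, adjusted p = 0.0287) and Hoxb13 (-1.03 ± 0.24, adjusted p = 0.00873). For AP against DLP 2 passed, both higher, beside 1.03% of all genes (0.467% higher and 0.562% lower), and the second was Hoxd8 with 27 UMIs against 0, at least 5.36-fold higher. The run block gave 3 here, adding Hoxb6.

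Both Hoxb13 calls of the RFP- cells depended on the scale. With plain library sizes the log2 fold change became -0.26 for AP against VP and -0.16 for DLP against VP and neither passed. That scale moved the median of all genes to 1.01 and 0.89, with 5562 genes higher and 244 lower in the first contrast. Leaving out runs left Hoxb9 and Hoxb13 of AP against VP past the threshold each time, whereas Hoxa9 did not pass without run 2 (1.82) or run 3 (1.44) and Hoxd8 did not pass whichever run was left out. For AP against DLP, Hoxb9 did not pass without run 2 (1.73) or run 3 (2.00), and it did not pass among cells of fewer than 7500 UMIs (1.11). For DLP against VP, 3 HOX genes passed without run 1, 1 without run 2 and 0 without run 3, where Hoxb9 was at 1.92. Different clusters held these cells: 85.8% of AP RFP- and 64.1% of DLP RFP- cells lay in a shared AP and DLP luminal cluster, and 64.5% of VP RFP- cells in the VP luminal cluster. Endothelial markers summed to 26.3 to 40.5 CPM in AP RFP- and 0 to 1.8 CPM in VP RFP- luminal-like cells. In the 69 intact cells of an endothelial-named cluster Hoxb9 was at 16.0 CPM. Over its 85 cells that cluster had the endothelial markers in a mean of 57.6% of cells per marker and the epithelial markers in 46.1%. The part of endothelial RNA in these contrasts was not tested.

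Within the AP, the gate itself split the HOX genes. Luminal-like AP RFP+ cells had more Hoxa7, Hoxa9, Hoxa11, Hoxa13, Hoxd11 and Hoxd13 than AP RFP- cells and less Hoxb9 and Hoxb13, 8 of 19 genes beside 19.7% of all genes. The 6 higher stand beside 10.6% and the 2 lower beside 9.12%. Hoxd13 in AP RFP- cells was at 8.73, 3.91 and 1.38 CPM, and Hoxa7 at 3.74, 2.23 and 1.38 CPM, both below every AP RFP+ run. Hoxa13 was at 6.23, 3.63 and 2.77 CPM in AP RFP- cells, also below every AP RFP+ run. Hoxb9 ran the other way, at a mean of 80.7 ± 23.4 CPM (SD, n = 3) in RFP- and 16.9 ± 3.88 CPM (SD, n = 3) in RFP+ cells. The fitted log2 fold changes of RFP+ over RFP- were 2.95 ± 0.51 for Hoxd13 (adjusted p = 0.000162), 3.06 ± 0.46 for Hoxa7 (adjusted p = 3.78e-05), 2.61 ± 0.55 for Hoxa13 (adjusted p = 0.00111) and -2.37 ± 0.31 for Hoxb9 (adjusted p = 7.61e-06). Hoxa9 (1.07 ± 0.26), Hoxa11 (2.31 ± 0.64), Hoxd11 (1.82 ± 0.56) and Hoxb13 (-0.91 ± 0.24) passed at adjusted p of 0.00422 to 0.0215, and the Hoxd11 runs overlapped between the gates. With 1 run left out, 7 passed without run 1, 3 without run 2 (Hoxa7, Hoxd13 and Hoxb9) and 6 without run 3. Among cells of fewer than 7500 UMIs 2 passed. Other markers moved with the gate as well. Against the hematopoietic sums of AP RFP+ cells above, AP RFP- cells had 9.35, 9.498 and 0 CPM, and the 5 endothelial markers summed to 7.94 to 12.2 CPM in RFP+ and 26.3 to 40.5 CPM in RFP- cells. The 363 adult cells named hematopoietic had Hoxd13 at 2.03 and Hoxa7 at 3.38 CPM, below every AP RFP+ run, and the part of these cells in the calls was not tested.

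This gate contrast moved with the proximal cluster. The proximal share of luminal-like cells was 83.3, 78.6 and 87.8% in AP RFP+ and 6.33, 4.52 and 0% in AP RFP- cells of runs 1, 2 and 3. Without the proximal cluster 0 HOX genes passed, and Hoxb13 changed sign (0.09 ± 0.26, adjusted p = 0.984). That fit held only 36, 22 and 18 AP RFP+ cells of runs 1, 2 and 3, so it could miss differences. As a description with no test, proximal AP RFP+ cells had Hoxd13 at 50.2, 64.9 and 64.2 CPM, and the other luminal-like AP RFP+ cells (36, 22 and 18 cells) had it at 19.6, 6.18 and 9.76 CPM. Hoxb9 was at 9.33, 2.2 and 3.38 CPM in the proximal and at 52.7, 24.7 and 68.3 CPM in the other AP RFP+ cells. Hoxb13 was at 194, 93.5 and 83.8 CPM in the proximal and at 370, 405 and 210 CPM in the other AP RFP+ cells. In each of these 3 genes the other AP RFP+ cells lay on the side of the AP RFP- cells. Hoxd13 nevertheless stayed above the AP RFP- values of 8.73, 3.91 and 1.38 CPM in every run. In run 2, 11 of the 22 other AP RFP+ cells lay in the VP luminal cluster. Across lobes, the pooled proximal cells (402 from AP, 32 from DLP and 21 from VP) had Hoxb13 at 150, 175 and 142 CPM, Hoxa10 at 62.7, 66.9 and 59.5 CPM and Hoxb9 at 6.79, 0 and 6.61 CPM. In luminal-like cells outside the proximal cluster Hoxb9 was at 64.3 CPM in AP, 14.0 CPM in DLP and 2.3 CPM in VP.

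In basal-like cells HOX levels of AP and VP lay closer together, and no AP against VP difference passed. DLP was not tested in these cells. Hoxd13 was at 48.6, 40.5 and 47.1 CPM in AP RFP+ and at 26.8, 15.3 and 23.2 CPM in VP RFP+ basal-like cells. Its values did not overlap, and the fitted log2 fold change was 1.08 ± 0.50 (adjusted p = 0.446). Hoxa9 was at 42.8, 24.5 and 19.95 CPM against 38.3, 22.9 and 16.9 CPM, with the runs interleaved. Of 19 HOX genes 0 passed for AP against VP in RFP+ cells, beside 0.484% of all genes (0.164% higher and 0.32% lower), with 2 at an unadjusted p under 0.05 in edgeR and none called by DESeq2. In RFP- cells 0 passed beside 0.0173% of all genes, with 2 at an unadjusted p under 0.05, and the largest of these was Hoxd11 at 1.89 ± 0.67 (adjusted p = 0.506).

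The lobe difference was tested between the compartments. In RFP+ cells the AP against VP difference of luminal-like cells exceeded that of basal-like cells for Hoxa3, Hoxa7, Hoxa9, Hoxd8, Hoxd11 and Hoxd13 and was more negative for Hoxb13, 7 of 19 genes beside 5.64% of all genes. For Hoxa9 the 2 differences were 2.47 and 0.14, a gap of 2.33 ± 0.42 (adjusted p = 0.00114). For Hoxd13 they were 3.75 and 1.08, a gap of 2.67 ± 0.75 (adjusted p = 0.0325). In RFP- cells 0 of 19 passed, beside 2.05% of all genes. Between the gates of luminal-like cells, 1 gene passed beside 3.37%: the lobe difference of Hoxb9 was smaller in RFP+ than in RFP- cells by 2.84 ± 0.62 (adjusted p = 0.00994). The run block added Hoxb13 (adjusted p = 0.00551) and Hoxa13 (adjusted p = 0.0173).

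As a description, since the compartments are clusters of the same cells, basal-like cells of every lobe held Hoxd13, Hoxd11 and Hoxa7, which among luminal-like populations were highest in AP RFP+ cells. The mean Hoxd13 level of basal-like cells ran from 21.8 ± 5.9 CPM (SD, n = 3, VP RFP+) to 45.4 ± 4.27 CPM (SD, n = 3, AP RFP+), and that of luminal-like cells was 44.0 ± 7.71 CPM in AP RFP+ and between 0.816 and 4.67 CPM in all others. Hoxd11 was at 5.45 to 23.7 CPM in basal-like means, and at 11.1 CPM in AP RFP+ and at most 2.52 CPM in other luminal-like means. Hoxa7 was at 14.7 to 31.0 CPM in basal-like means, and at 24.8 CPM in AP RFP+ and at most 3.30 CPM in other luminal-like means. Hoxb9 had the opposite bias: its basal-like means were 0.33 to 3.86 CPM. Hoxd10, the gene that reached 5 CPM in the adult alone, did so in basal-like cells (5.71 ± 1.95 CPM in AP RFP+).

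Partner and chromatin genes were read beside the HOX genes. In luminal-like RFP+ cells 3 of the 7 tested partners reported here were higher in AP than in VP, beside 14.6% of all genes, Pknox1 (1.52 ± 0.35), Meis1 (0.95 ± 0.25) and Meis2 (1.78 ± 0.54), and Meis3 was lower (-1.60 ± 0.54), beside 11.2%, with adjusted p from 0.00201 to 0.0307. Meis1 and Meis2 were also higher in AP RFP+ than in AP RFP- cells (1.31 ± 0.27 and 3.02 ± 0.63). Of 19 tested chromatin regulators 5 passed in AP against VP RFP+ cells, 3 higher and 2 lower, a share near the 25.7% of all genes. Among them was the Polycomb cofactor Jarid2 (-1.15 ± 0.26, adjusted p = 0.00135). Ezh2 and Ezh1, the methyltransferases of Polycomb complex PRC2, were higher in AP RFP+ than in AP RFP- cells (1.28 ± 0.38 and 0.98 ± 0.31), where 10.6% of all genes were higher. Among RFP- cells 1 partner passed in AP against VP, Meis3 (-2.70 ± 0.82, adjusted p = 0.0283), beside 13.2% of all genes, and 0 partners or chromatin genes passed in the other RFP- contrasts or in basal-like cells. The caudal genes Cdx1, Cdx2 and Cdx4, regulators of HOX clusters in the embryo, were below the filter everywhere.

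Castrated and intact cells were compared in run 2, where castrated mice are 1 pool, so there is no replicate and no test. The castrated pool of run 1 was sorted without regard to lobe and gave 17 basal-like or luminal-like cells, so it was not used. Genes are counted when the ratio is 2-fold or more with 5 CPM in either group and 20 UMIs over both, and intervals are 95% and cover counting error only. In basal-like RFP+ cells Hoxb13 was lower after castration in both lobes described. In AP it was at 76.7 CPM in 150 castrated and 218 CPM in 113 intact cells, a log2 ratio of -1.51 (-1.86 to -1.17). In VP it was at 70.8 CPM in 79 castrated and 314 CPM in 85 intact cells, a log2 ratio of -2.15 (-2.74 to -1.60). Among VP cells of fewer than 7500 UMIs the ratio was -3.46 (-4.83 to -2.33), on 7 UMIs in castrated and 61 in intact cells. Other 5′ genes were higher: Hoxd11 in AP at 59.2 against 19.6 CPM (1.60, 0.95 to 2.28), Hoxd10 in AP at 12.5 against 3.49 CPM, and Hoxd13 in VP at 61.0 against 15.3 CPM (2.00, 1.09 to 2.92). Hoxa13 in AP was also past 2-fold, with an interval that includes 0 (1.02, -0.19 to 2.31). Thus 3 of 8 described HOX genes were higher in AP, beside 2.53% of all genes, and 1 was lower, beside 11.3%. In VP 1 of 5 was higher, beside 8.23%, and 1 was lower, beside 16.0%. Castrated basal-like cells were shallower, with medians of 5369.5 and 3623 UMIs per cell against 8682 and 8613, and the part of depth in these ratios was not tested.

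**Figure D4:**
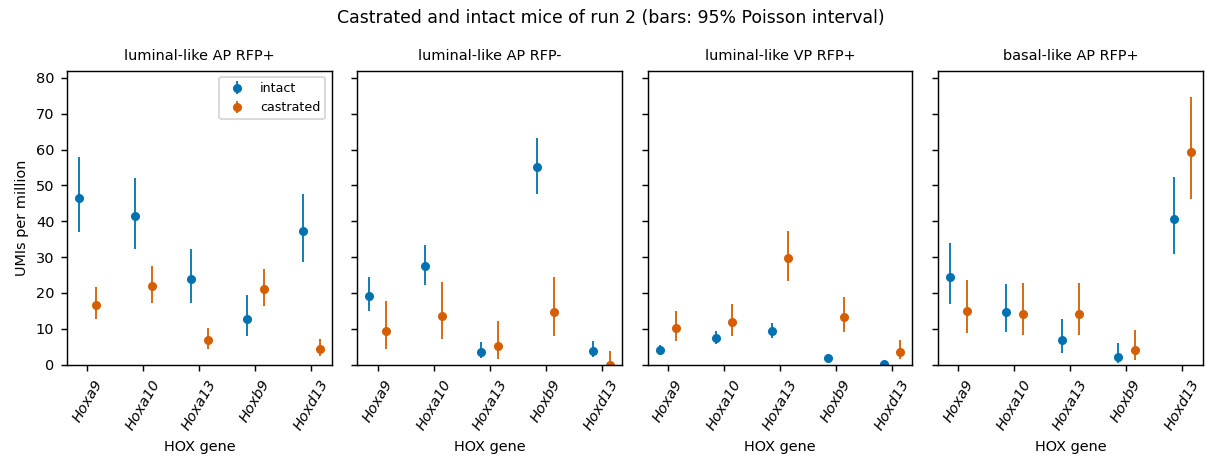
CPM of Hoxa9, Hoxa10, Hoxa13, Hoxb9 and Hoxd13 in castrated (orange) and intact (blue) cells of run 2, 1 panel per population, with 95% Poisson intervals. Hoxd13 is at 4.39 CPM in castrated and 37.3 CPM in intact luminal-like AP RFP+ cells, and Hoxb9 is at 14.6 and 55.03 CPM in luminal-like AP RFP- cells.

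Luminal-like cells had a different set. In AP RFP+ cells Hoxd13 was at 4.39 CPM in 193 castrated and 37.3 CPM in 103 intact cells, a log2 ratio of -3.09 (-4.00 to -2.26). Hoxa9 was at 16.7 against 46.6 CPM (-1.48, -2.00 to -0.97) and Hoxa13 at 6.73 against 23.9 CPM (-1.83, -2.63 to -1.06). With Hoxa11 and Hoxb7 these were 5 lower of 10 described, beside 7.49% of all genes, and 0 were higher, beside 9.48%. Hoxb13 over all these cells was at 191 against 240 CPM (-0.33). In intact mice Hoxb13 was lower in proximal than in other AP RFP+ cells, and Hoxd13, Hoxa9 and Hoxa13 were higher in proximal ones. The proximal share was 9.33% of castrated and 78.6% of intact AP RFP+ cells. Most castrated ones (158 of 193) lay in a cluster of castrated AP and DLP cells. The ratios of all 4 genes therefore mix cell types, and the part of that mix was not tested. In AP RFP- cells Hoxb9 was at 14.6 CPM in 49 castrated and 55.03 CPM in 155 intact cells (-1.92, -2.81 to -1.14), and 35 of the castrated cells lay in the cluster of castrated AP and DLP cells. A further 10 of the castrated and 20 of the intact cells lay in the VP luminal cluster. That cluster had a median of 48150 UMIs per cell, and the part of its cells in these ratios was not tested. Hoxa9, Hoxa10 and Hoxb7 were also past 2-fold, 4 lower of 5 described beside 15.1% of all genes and 0 higher beside 4.93%, and Hoxb7 had 0 UMIs in castrated and 23 in intact cells, at least 2.06-fold lower. With the 50 most abundant genes left out of the library sizes Hoxb9 alone was past 2-fold (-1.66), with Hoxa9 at -0.78 and Hoxa10 at -0.76. With HTODemux barcode calls Hoxa13 was past 2-fold higher (1.20, 0.06 to 2.30) and Hoxa10 was not past 2-fold (-0.86). Hoxb13 there was at 347 against 355 CPM. In DLP RFP- cells Hoxa10 alone of 4 described was past 2-fold lower (-1.70, -3.64 to -0.23), beside 15.2% of all genes (2.38% were higher), and Hoxb13 was at 363 against 364 CPM. Of these DLP cells 5 of 21 castrated and 12 of 67 intact ones lay in the VP luminal cluster.

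In VP RFP+ luminal-like cells Hoxa9, Hoxa13 and Hoxb9 were 2-fold or more higher after castration, 3 of 5 described, where 47.6% of all genes were higher and 1.77% lower. Hoxb9 was at 13.4 CPM in 126 castrated and 1.84 CPM in 183 intact cells (2.87, 1.97 to 3.83). Most of these cells lay in different clusters, 105 of 126 castrated cells in one of castrated VP cells and 171 of 183 intact cells in the VP luminal one. The median over all genes here was 0.97. When the 50 most abundant genes were left out of the library sizes it was -0.09, Hoxb9 alone was past 2-fold higher, and Hoxb13, at 374 against 449 CPM on the plain scale, was past 2-fold lower. Of the chromatin genes described 9 of 17 were past 2-fold higher on the plain scale in these cells, a share near the 47.6% of all genes. Of the partners 5 of 5 described were past 2-fold higher there, with a median log2 ratio of 2.12. In castrated AP RFP+ luminal-like cells 1 of 5 described partners was lower, Meis2 (-2.71, -3.49 to -1.99), beside 7.49% of all genes, and 0 were higher.

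In the explants the 5′ genes were present from the first day, and some 3′ B cluster genes and Hoxd1 were lower on later days. Each day is 1 pool in 1 library, so there is no test. Day 0 differs from the later days in culture and hormone as well as in time. Hoxa10 was at 56.9, 45.1, 57.9 and 54.2 CPM on days 0, 1, 3 and 6. Hoxa13 was at 44.2, 34.3, 39.3 and 33.1 CPM, and Hoxd13 at 34.8, 28.8, 33.4 and 38.4 CPM. None of the 3 differed 2-fold between any pair of days. Hoxb13, the adult prostate gene, was at 58.4, 38.7, 48.4 and 80.2 CPM, lowest on day 1 and highest on day 6. The share of cells with a Hoxb13 UMI, after each cell was thinned to 5000 UMIs, was 21.6, 17.7, 20.3 and 29.4%. On day 6 Hoxb13 was below its level in every intact adult luminal-like population, though the libraries differ in age and tissue.

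Hoxb2 was at 18.9, 13.3, 4.57 and 4.203 CPM and Hoxb3 at 16.3, 9.46, 3.79 and 4.26 CPM on days 0, 1, 3 and 6. Hoxb8 was at 34.5, 15.2, 10.5 and 15.7 CPM. Hoxd1, the most 3′ gene of the D cluster, was at 9.15, 2.41, 0.41 and 0.30 CPM. Hoxb2 and Hoxb3 act in hindbrain patterning and Hoxd1 in sensory neurons. All 4 were highest on day 0. Hoxd1 had a UMI in 14.8% of 701 cells on day 0 and in 0.405% of 2470 cells on day 6, and in 4.32% and 0.0408% after thinning. From day 0 to day 6, 5 of 20 described HOX genes were 2-fold or more lower (Hoxb2 -2.17, Hoxb3 -1.94, Hoxb4 -1.13, Hoxb8 -1.13 and Hoxd1 -4.92, log2), beside 8.15% of all genes, and 0 were higher, beside 4.44%. Between neighbouring days, Hoxb8 (-1.18), Hoxb9 (-1.13) and Hoxd1 (-1.92) were lower on day 1 than on day 0, 3 of 20 beside 2.05% of all genes, and 0 were higher, beside 2.43%. Hoxb2 (-1.55) and Hoxb3 (-1.32) were lower on day 3 than on day 1, 2 of 19 beside 2.38%, and 0 were higher, beside 1.26%. From day 3 to day 6 none of 15 was past 2-fold in either direction, beside 1.31% lower and 0.86% higher.

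The B cluster differences moved in part with the cell mix. Of day 0 cells 106 of 701 lay in mesonephric-like clusters, and of day 6 cells 30 of 2470. Unnamed clusters held 38 cells with a Pax2 UMI and 55 without one on day 0, and 66 and 184 on day 6. Among them a cluster of 235 cells had the mesonephric markers in a mean of 49.7% of cells per marker. That is just under the 50% needed for the name, so the mesonephric-like shares may be too low. In prostatic-like clusters alone, Hoxb8 and Hoxb9 were not lower on day 1 than on day 0 (0.47 and 0.05), and Hoxb8 on day 6 against day 0 was at -0.06. Hoxb2 (-3.70), Hoxb3 (-1.40) and Hoxb4 (-1.88) were still past 2-fold lower on day 6 in those clusters, as were Hoxd1 (-5.69), Hoxa3 (-1.74) and Hoxa5 (-1.14). These were 6 of 20 described, beside 788 of 9902 genes. Hoxd9 was past 2-fold higher (1.06, 0.48 to 1.68), 1 of 20 beside 511 of 9902 genes, a share near that of all genes. Of the partners Pbx3 (-1.37), Pbx4 (-2.06) and Meis3 (-1.69) were lower on day 6 than on day 0, 3 of 8 described beside 8.15% of all genes. Of the chromatin genes 1 of 19 described was lower, the Polycomb gene Cbx2 (-1.29), a share below that of all genes. The median UMIs per cell were 16999 on day 0 and 13264.5 on day 6.

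Explant cells with a Pax2 UMI had a different HOX profile from cells without one on every day. Pax2+ cells numbered 104, 48, 56 and 117 on days 0, 1, 3 and 6, and Pax2- cells 597, 754, 1169 and 2353. The Pax2+ cells lay mostly in mesonephric-like and unnamed clusters, and 7, 4, 1 and 5 of them lay in prostatic-like ones. Urothelium-like clusters held 0, 6, 13 and 26 of them. On day 6, 66 of the 117 lay in unnamed clusters and 20 in mesonephric-like ones. Of the 39 genes 8 were 2-fold or more higher in Pax2+ cells on all 4 days, all but 1 of them in the B cluster: Hoxb2, Hoxb3, Hoxb4, Hoxb6, Hoxb7, Hoxb8, Hoxb9 and Hoxd9. A further 9 were 2-fold or more lower on all 4 days: Hoxa7, Hoxa9, Hoxa10, Hoxa11, Hoxa13, Hoxb13, Hoxd11, Hoxd12 and Hoxd13. Higher members were 10 of 23 described on day 0, 9 of 20 on day 1, 10 of 19 on day 3 and 11 of 21 on day 6, beside 6.74, 7.17, 9.8 and 7.65% of all genes. Lower members were 11, 10, 9 and 10, beside 5.68, 6.99, 6.25 and 3.56%. In the B cluster Hoxb13 was on the other side from Hoxb2 to Hoxb9, and in the D cluster Hoxd11 to Hoxd13 were on the other side from Hoxd9, with Hoxd1, lower on day 0, as an exception to that order. No A cluster gene was past 2-fold higher on any day.

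The promoters of a pair of genes from each side are printed as an example, Hoxa13 and Hoxd13 for the 5′ genes that were lower in Pax2+ cells and Hoxb8 and Hoxd9 for the genes that were higher. Each is the 250 bases before the RefSeq start site in GRCm38.p6, on the gene's strand, with chromosomal spans chr6:52260881-52261130 (minus), chr2:74667975-74668224 (plus), chr11:96281655-96281904 (plus) and chr2:74697513-74697762 (plus). Capitals mark matches, on either strand, to 4 motifs. The caudal factor motif was TTTATG, with TTTATT as its second form. The motif of HOX bound with PBX was TGATNNAT. The RUNX motif was TGTGGT, and the TATA box motif was TATAAA.
Hoxa13: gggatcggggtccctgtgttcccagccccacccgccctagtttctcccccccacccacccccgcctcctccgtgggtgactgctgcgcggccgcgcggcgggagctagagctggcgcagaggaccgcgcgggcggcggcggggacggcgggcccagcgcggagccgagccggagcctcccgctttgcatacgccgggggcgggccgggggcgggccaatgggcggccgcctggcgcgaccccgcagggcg
Hoxd13: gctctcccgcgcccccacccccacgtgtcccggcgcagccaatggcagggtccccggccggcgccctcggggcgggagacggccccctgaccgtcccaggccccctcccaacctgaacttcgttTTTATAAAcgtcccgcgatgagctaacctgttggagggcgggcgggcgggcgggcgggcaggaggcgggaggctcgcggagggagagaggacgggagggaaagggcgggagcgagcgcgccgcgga
Hoxb8: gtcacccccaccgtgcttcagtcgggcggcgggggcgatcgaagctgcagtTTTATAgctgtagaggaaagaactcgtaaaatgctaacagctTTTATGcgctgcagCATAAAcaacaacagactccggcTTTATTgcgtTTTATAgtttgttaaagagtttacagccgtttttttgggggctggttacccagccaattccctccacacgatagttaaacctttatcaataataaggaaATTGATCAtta
Hoxd9: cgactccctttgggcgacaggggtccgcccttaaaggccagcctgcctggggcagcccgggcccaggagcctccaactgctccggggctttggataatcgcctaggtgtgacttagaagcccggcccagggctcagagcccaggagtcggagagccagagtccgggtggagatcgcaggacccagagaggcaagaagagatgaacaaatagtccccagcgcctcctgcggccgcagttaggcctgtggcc
The Hoxa13 window holds 35 CpG and the Hoxd13 window 31, against 12 in Hoxb8 and 13 in Hoxd9. These examples do not stand for their sides. Among other genes lower in Pax2+ cells the windows held 3 (Hoxa9), 7 (Hoxa7), 10 (Hoxd12) and 13 CpG (Hoxa11). Hoxa10 had windows of 20 and 7 and Hoxd11 of 20 and 2, and Hoxb4, on the higher side, had 14. Hoxb8 has 3 caudal matches, 1 HOX with PBX match and 2 TATA matches, Hoxd13 has a pair of overlapping TATA matches, and the other windows have no match. In Hoxd13 the end of the window lies outside the annotated transcript. Over 32851 mouse promoters the caudal motif was found in 25.5%, the HOX with PBX motif in 7.68%, the RUNX motif in 14.0% and the TATA motif in 12.4%. In 24 windows of 22 HOX genes they were found in 7, 4, 1 and 4. The median HOX window held 12.5 CpG, and the median of all promoters was 6.

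The B cluster genes set the higher side, among them Hoxb7, whose regulatory sequence is widely used to mark the mesonephric duct and the ureteric bud. Hoxb7 was at 93.1, 128, 179 and 120 CPM in Pax2+ and at 22.9, 21.5, 18.3 and 20.8 CPM in Pax2- cells on days 0, 1, 3 and 6, log2 ratios of 2.02, 2.57, 3.29 and 2.52. Hoxb8 was at 123, 65.2, 89.3 and 91.6 CPM against 19.5, 11.5, 6.88 and 12.1 CPM, log2 ratios of 2.66, 2.51, 3.70 and 2.92. Hoxb9 was at 75.5, 32.6, 59.2 and 87.4 CPM against 14.1, 8.87, 7.69 and 15.2 CPM. In these 3 genes the 95% counting interval of every day lies above 1 on the log2 scale. Hoxb2, Hoxb3 and Hoxb4, best known from hindbrain and neck patterning, were higher as well. Hoxb4 was at 48.1, 35.3, 36.3 and 44.0 CPM against 11.1, 8.40, 4.54 and 5.76 CPM. Hoxb6 was at 30.0, 15.4, 18.7 and 27.9 CPM against 4.51, 4.30, 3.01 and 2.97 CPM. Hoxb2 and Hoxb3 were at 20.8 to 46.3 CPM in Pax2+ cells and 2.96 to 14.2 CPM in Pax2- cells. All of these B cluster values in Pax2+ cells lay above those of Pax2- cells of the same day. Hoxd9, a gene of the trunk and hindlimb field, was at 29.6, 17.2, 50.9 and 51.1 CPM against 6.19, 6.35, 8.31 and 9.50 CPM, and its day 1 interval (0.64 to 2.16) reaches below 2-fold. Its neighbour Hoxd8 was past 2-fold on days 3 and 6 (1.99 and 1.83) and not on days 0 and 1 (0.84 and 0.38). Hoxb5 was past 2-fold on days 0, 1 and 6 (1.86, 2.99 and 1.56), Hoxd3 on days 3 and 6 (3.16 and 2.11), and Hoxc4 on day 0, with 12 UMIs in Pax2+ cells. Hoxc5 reached 5.43 CPM in Pax2+ cells of day 1 on 6 UMIs and was not described by ratio.

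The 5′ genes set the lower side. Hoxa10 was at 10.3, 4.53, 6.23 and 2.97 CPM in Pax2+ and at 64.8, 48.1, 60.2 and 56.7 CPM in Pax2- cells, log2 ratios of -2.65, -3.41, -3.27 and -4.25. Hoxb13 was at 12.4, 3.62, 4.15 and 14.9 CPM against 66.2, 41.4, 50.4 and 83.4 CPM, log2 ratios of -2.41, -3.51, -3.60 and -2.49. Hoxd13 was at 4.72, 0.905, 3.12 and 4.16 CPM against 39.9, 30.9, 34.8 and 40.0 CPM. On day 1 its Pax2+ value is 1 UMI, a log2 ratio of -5.09 with an interval of -10.40 to -2.61. Further genes of the A and D clusters lay on the same side. Hoxa9 was at 11.6, 8.15, 3.12 and 7.14 CPM against 65.3, 50.7, 51.4 and 58.2 CPM. Hoxa13 was at 9.87, 4.53, 2.08 and 2.97 CPM against 50.1, 36.6, 41.0 and 34.6 CPM. Hoxd11 was at 9.01, 3.62, 2.08 and 2.38 CPM against 51.7, 31.2, 31.0 and 33.5 CPM. Hoxa7, a gene of trunk patterning, was the lowest-numbered gene described on every day that lay on this side. It was at 2.97 to 6.23 CPM in Pax2+ and 18.8 to 30.8 CPM in Pax2- cells. Hoxa11 and Hoxd12 had 0 to 3 UMIs in the Pax2+ cells of each day, and with 0 on day 6 they were at least 4.78-fold and 4.75-fold lower. Hoxa5 was past 2-fold lower on days 0, 1 and 6, and Hoxd1 on day 0, with 0 UMIs against 147, at least 8.31-fold lower. Hoxa3 was described on day 0 alone and was not past 2-fold (-0.74).

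**Figure D5:**
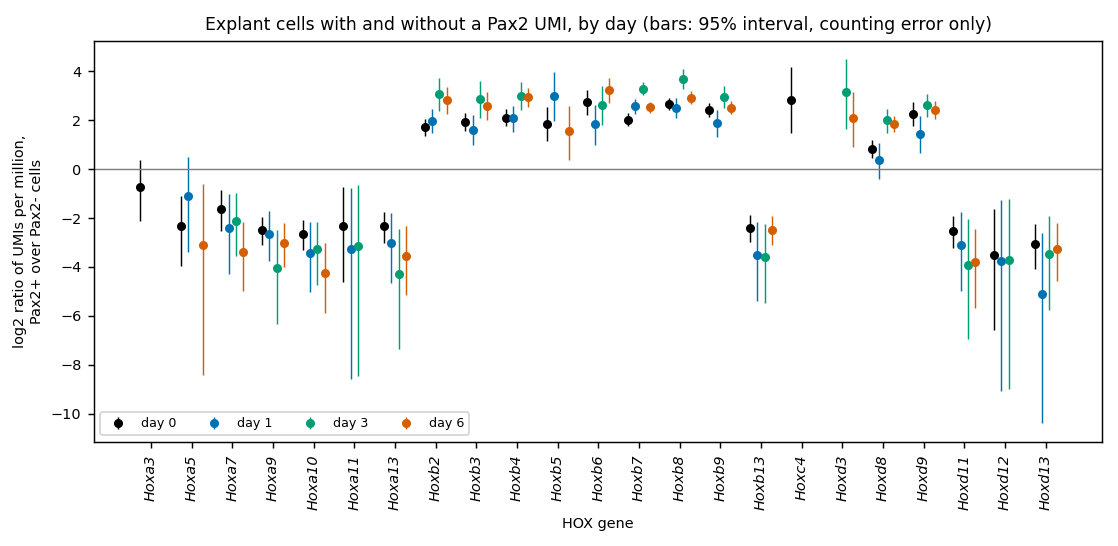
Log2 ratio of Pax2+ over Pax2- explant cells for HOX genes by day, with 95% counting intervals. Genes with 0 UMIs on 1 side (Hoxd1 on day 0, Hoxa11 and Hoxd12 on day 6) are not drawn. Hoxb2 to Hoxb9 and Hoxd9 lie at or above 1 on the days drawn, and Hoxa7 to Hoxa13, Hoxb13 and Hoxd11 to Hoxd13 lie below -1.

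Depth was similar in the classes on days 3 and 6 (medians of 16183.5 and 13213 UMIs per cell in Pax2+ against 16207 and 13275 in Pax2- cells) and higher in Pax2+ cells on days 0 and 1 (19038 and 20724 against 16658 and 15307.5). Cells without a Pax2 UMI can still express Pax2, and 47, 19, 14 and 10 Pax2- cells lay in mesonephric-like clusters. By cluster, the 204 mesonephric-like cells had Hoxb7 at 160, Hoxb8 at 152, Hoxb9 at 135 and Hoxd9 at 65.3 CPM, and the 4175 prostatic-like cells had Hoxb7 at 10.3 and Hoxb8 at 2.50 CPM with Hoxa9 at 63.0, Hoxa10 at 63.0 and Hoxb13 at 73.0 CPM. Of the partners Pbx3 was past 2-fold lower in Pax2+ cells on days 0, 1 and 3 and Pbx4 higher on the same days, Meis2 was lower on days 0, 1 and 6 (-1.36, -1.05 and -1.61), and Meis1 was lower on day 6 (-1.95). Lower partners were 2 of 8, 2 of 8, 1 of 7 and 2 of 6 described on days 0, 1, 3 and 6. They stand beside 5.68, 6.99, 6.25 and 3.56% of all genes. Higher partners were 1, 1, 1 and 0, beside 6.74, 7.17, 9.8 and 7.65%.

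A small adult population was high in B cluster genes and at or near 0 UMIs for most 5′ genes. Of the adult cells 33 lay in a cluster named from seminal vesicle and mesonephric markers (Svs2, Svs4, Pax2 and Pax8, found in a mean of 54.5% of these cells per marker), 32 of them from DLP sorts and 25 from intact mice. They had Hoxb8 at 87.6, Hoxb7 at 86.2, Hoxb6 at 62.6, Hoxd8 at 51.4, Hoxd9 at 41.7, Hoxb9 at 40.3, Hoxb4 at 26.4 and Hoxb2 at 20.9 CPM. Hoxb13 had 3 UMIs (4.17 CPM), Hoxa9, Hoxa11 and Hoxa13 had 1 UMI each, and Hoxa7, Hoxa10 and Hoxd10 to Hoxd13 had 0. HOX genes were used neither to cluster nor to name these cells, and no test was made since they are few and come from 1 cluster.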

How the data were processed

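UMI counts per gene and cell were deposited for 4 10x 3′ libraries. Per the labels and the study's methods, the authors aligned reads to mm10 with Cell Ranger 3.1.0 and counted MULTI-seq sample barcodes with deMULTIplex 1.0.2, and Seurat 3.1.5 is also listed. The deposited counts are whole numbers and not normalized. Cells kept had 750 to 7500 genes and at most 10% mitochondrial UMIs (adult), or at least 1000 genes and at most 7.5% (explant). Each cell was assigned from the deposited barcode counts with the thresholds the study gives per barcode, cells with several barcodes were removed, and no further doublet caller was run, so doublets within a sample remain. Cells were clustered with Seurat 5.3.0 in R 4.3.3 without HOX genes, and clusters were named from marker lists. Basal, proximal, mesonephric and explant epithelial names needed the markers of the list on average in 50% of cells. Hematopoietic, endothelial and mesenchyme names needed a higher average than the epithelial markers. The remaining adult epithelial clusters were named luminal, and those whose leading genes matched another list better were left unnamed. Luminal-like includes the proximal cluster.

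Counts were summed per run, compartment, lobe and gate with at least 10 cells, and 31 intact sums entered 1 edgeR 4.0.16 quasi-likelihood fit (TMM, filterByExpr) without a block. Benjamini-Hochberg adjustment ran over all 11560 tested genes per contrast, of which 19 are HOX genes, and the SE is the log2 fold change divided by the square root of F. DESeq2 1.42.0 was an alternative. The fit was tested on simulated data: of 200 changed genes among 10778 in the luminal-like RFP+ AP against VP contrast, edgeR recovered 41% at 2-fold and 94% at 4-fold, with 6.25% false calls. Shares of UMIs have exact Poisson and shares of cells Wilson 95% intervals, which cover counting error only, and a side at 0 was set to 3 UMIs. Cells of a run are pooled mice in 1 library, so runs pair the sums: deviations of the same run correlated at 0.0699 to 0.436 across genes. The members, the partner, chromatin and caudal lists, the 2-fold rule and the naming thresholds were chosen with earlier results of these data known. Members were named where they passed a test, reached 5 CPM in a population or had no UMI, and at most 4 partner or chromatin genes per contrast, those with the smallest adjusted p. Clusters depend slightly on the numerical library, and a clustering under another kernel was added after seeing the data. Promoters are from RefSeq (GRCm38.p6), with 22 of 39 genes matched. A few genes are not reported here.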

Additional observations from a re-analysis of the deposited data

Results flagged for a closer look

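In 8 cases the AP against VP difference of a HOX gene differed between groups of intact cells by an interaction term of the edgeR fit. Between luminal-like and basal-like RFP+ cells the gap in log2 fold change (luminal-like minus basal-like) was 2.33 for Hoxa9, -1.80 for Hoxb13, 2.81 for Hoxa7, 4.31 for Hoxd8, 3.85 for Hoxd11, 6.08 for Hoxa3 and 2.67 for Hoxd13, with adjusted p from 0.00114 (Hoxa9) to 0.0325 (Hoxd13). Hoxa3 rests on 26 UMIs in AP and 1 in VP luminal-like RFP+ cells and has an exon that overlaps another counted gene. Between luminal-like RFP+ and RFP- cells the gap (RFP+ minus RFP-) was -2.84 for Hoxb9 (adjusted p = 0.00994). The proximal share of luminal-like cells, 78.6 to 87.8% in AP RFP+ against 3.28 to 11.8% in VP RFP+ cells, moves with these gaps, and its part in them was not tested.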

How the results depend on the processing

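Of 424 alternative values of the tested HOX calls 343 kept their direction and their side of the threshold, 80 kept their direction but did not pass and 1 reversed. All 33 calls held with the replicate block (the run as a block), without the expression filter and under another numerical kernel for clustering, the last chosen after seeing the data. The block changed the number of HOX genes past the threshold from 4 to 7 in luminal-like RFP- AP against VP, and in AP against DLP from 2 to 3. DESeq2 lost 5 of 33 calls, plain library sizes 2, and without the proximal cluster 18 of 32 did not pass and 1 more, Hoxb13 of AP RFP+ against RFP-, reversed to 0.0853. HOX counts with 1 run left out were 2 to 3 for luminal-like RFP- AP against VP, 0 to 1 for AP against DLP, 0 to 3 for DLP against VP, 7 to 12 for RFP+ AP against VP, 3 to 7 for AP RFP+ against RFP- and 0 to 0 in both basal-like contrasts. In RFP- AP against VP plain library sizes gave 9. In AP against DLP a fit of the 2 groups alone gave 1, HTODemux barcode calls 1 and cells of fewer than 7500 UMIs 0. Without the proximal cluster DLP against VP gave 1, RFP+ AP against VP 7 and AP RFP+ against RFP- 0. The 2 groups alone gave 10 in RFP+ AP against VP, and cells of fewer than 7500 UMIs gave 2 in AP RFP+ against RFP-. The calls over all genes ran, across settings, from 1105 to 5806, 5 to 363, 395 to 4322 and 1637 to 8317 in these 4 lobe contrasts, from 189 to 3446 between the AP gates, and from 0 to 365 and 0 to 110 in basal-like RFP+ and RFP- cells.

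Of 216 alternative values of the described ratios 186 stayed within the counting interval. After castration, cells of fewer than 7500 UMIs gave 1 HOX gene past 2-fold in luminal-like AP RFP+, 2 in basal-like AP RFP+ and 1 in basal-like VP RFP+, library sizes without the 50 most abundant genes gave 1 in luminal-like AP RFP-, and HTODemux calls gave 2 in luminal-like DLP RFP- and 2 in basal-like AP RFP+. In explants those library sizes gave 8 for day 6 against day 0, and prostatic-like clusters alone reversed Hoxb8 (0.469) and Hoxb9 (0.0459) of day 1 against day 0. Thinning to 5000 UMIs per cell left 16 Pax2+ cells on day 1 and 20 on day 3 and gave 5 and 9 HOX genes past 2-fold, all higher, since so few cells cannot show a lower level at the limit of 3 UMIs. Cells of fewer than 7500 UMIs were too few for the VP luminal-like contrasts and for castrated luminal-like AP RFP-, DLP RFP- and VP RFP+ cells, and the cause of the changes above was otherwise not tested.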
